A study of Mus musculus with 9 samples.

Results

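The genes examined here are 9 components of the epithelial tight junction: the claudin genes Cldn1, Cldn3, Cldn4, Cldn7, Cldn8 and Cldn23, the occludin gene Ocln, and the scaffold genes Tjp1 and Tjp3. They were named as a set with earlier results of these data known, so their counts beside the shares of all genes are descriptions. A row of the array was taken for a gene where the platform annotation gives exactly 1 symbol, and each of the 9 genes had 1 such row among the 22180 genes measured. RNA came from whole mouse corneas on single-colour expression arrays, 1 array per pool of 10 corneas from 5 mice, with 3 pools in each of 3 groups. The mutant group carried the corn1 mutation of Dstn, which encodes the actin depolymerising factor destrin. Rescued mice had this mutation too, and Srf, the gene for serum response factor, had been ablated genetically in their corneal epithelium. Which promoter drives that ablation was not given in the labels. The third group was wild type (WT). Mice of every group had intraperitoneal doxycycline from postnatal day 28 to 58, were collected at postnatal day 58, and were of mixed strain background (FVB, Swiss Black, 129, C57BL6/J and A.BY), so WT mice shared the drug, the age and the mixed background.

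Tight junctions close the gap between neighbouring epithelial cells near their apical side. Claudins are membrane proteins that polymerise into the strands of the junction and set which ions and solutes pass, occludin is a second kind of strand protein, and the zonula occludens proteins encoded by the Tjp genes tie claudins and occludin to the actin cytoskeleton. In the stratified epithelium of the cornea the sealing junctions lie in the superficial cell layer, where they form the barrier towards the tear film, while claudins are also made in deeper layers.

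The authors' normalised intensities are on a log2 scale, so a difference of 1 is a 2-fold difference of measured intensity. The level of a probe set cannot be compared with that of another, and only differences between groups are given for a gene. Dstn was at 5.55, 5.80 and 5.54 in the mutant pools and at 5.61, 5.62 and 5.63 in the rescued pools, against 12.58, 12.55 and 12.59 in WT. Srf averaged 10.68 ± 0.12 in mutant, 9.01 ± 0.51 in rescued and 9.13 ± 0.13 in WT corneas (SD, n = 3 each). Array medians lay between 6.75 and 6.78, and no array duplicated another. Pools differed in sex-linked RNA: 3 Y-linked genes averaged 5.34 and 5.15 in replicates 1 and 3 of WT, against 7.16 to 9.77 elsewhere, while the Xist level was 6.12 for mutant replicate 2 and 11.76 to 12.94 for all others. With the Y-linked mean as a covariate, added after seeing the data, 7, 8 and 3 of the 9 genes were called in mutant minus WT, rescued minus mutant and rescued minus WT, as without it. Differences were tested with limma over all 9 arrays, and calls were made where the p adjusted over all 22180 genes by the Benjamini-Hochberg method was under 0.05. Pools are the replicates throughout.

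RefSeq (GRCm38.p6) gives promoter windows, from 250 bases before to 50 bases after the annotated start, for 7 of the 9 genes, all but Cldn8 and Cldn23. Shown are those of Cldn1 and Cldn4, the claudin genes that rose most in the mutant, and of the scaffold genes Tjp1 and Tjp3, which fell. Capitals mark matches, on either strand, to 6 motifs searched: the CArG box of serum response factor, the TEAD motif GGAATG, the grainyhead motif AACCNGTT, the AP-1 motif TGANTCA, the E-box CAGGTG bound by Snail-family repressors, and the TATA box TATAAA. The window of Cldn1 is chr16:26371790-26372089, minus strand, that of Cldn4 chr5:134946885-134947184, minus strand, that of Tjp1 chr7:65371195-65371494, minus strand, and the first of the windows listed for Tjp3 chr10:81291532-81291831, minus strand.
Cldn1: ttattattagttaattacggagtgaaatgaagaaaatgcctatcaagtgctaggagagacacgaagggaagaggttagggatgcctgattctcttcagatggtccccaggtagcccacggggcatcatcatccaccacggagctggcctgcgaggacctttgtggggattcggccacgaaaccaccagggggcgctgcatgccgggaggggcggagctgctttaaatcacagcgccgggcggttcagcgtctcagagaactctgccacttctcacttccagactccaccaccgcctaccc
Cldn4: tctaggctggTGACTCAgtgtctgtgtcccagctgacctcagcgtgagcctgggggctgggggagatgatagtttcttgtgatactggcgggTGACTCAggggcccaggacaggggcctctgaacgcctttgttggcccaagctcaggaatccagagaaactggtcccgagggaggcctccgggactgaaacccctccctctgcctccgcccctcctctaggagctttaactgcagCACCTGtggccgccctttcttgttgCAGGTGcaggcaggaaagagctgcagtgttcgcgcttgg
Tjp1: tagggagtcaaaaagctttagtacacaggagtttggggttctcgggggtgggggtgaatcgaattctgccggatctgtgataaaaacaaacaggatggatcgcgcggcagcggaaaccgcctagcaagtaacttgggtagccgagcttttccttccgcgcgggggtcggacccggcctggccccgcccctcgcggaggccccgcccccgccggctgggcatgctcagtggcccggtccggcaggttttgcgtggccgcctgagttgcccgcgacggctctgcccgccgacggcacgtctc
Tjp3: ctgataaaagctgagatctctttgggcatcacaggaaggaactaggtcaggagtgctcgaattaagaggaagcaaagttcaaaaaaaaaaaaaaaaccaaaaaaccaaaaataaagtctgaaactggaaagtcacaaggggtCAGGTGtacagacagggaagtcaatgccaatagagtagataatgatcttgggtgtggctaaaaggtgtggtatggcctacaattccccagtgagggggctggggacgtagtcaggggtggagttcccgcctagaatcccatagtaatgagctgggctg
Cldn4 had TGACTCA, the form bound by AP-1 factors, with its first base 240 and 158 bases before the start, and CAGGTG or its reverse complement at 2 places that overlap no other match. The first window of Tjp3 had CAGGTG with its first base 108 bases before the start. Of 32851 promoter windows, TGANTCA was found in 7.8%, CAGGTG in 20.2%, GGAATG in 14.7%, TATAAA in 13.6% and AACCNGTT in 2.1%. The windows of Cldn1 and Tjp1 held none of the 6 motifs, and no window of the 7 genes held a CArG box, which 1.6% of all windows held. Matches are letters within 300 bases and say nothing of binding, and their absence says nothing of the factors.

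Mutant corneas were set against WT to see what the Dstn mutation changed. Among the 9 tight junction genes the claudin genes Cldn1, Cldn4 and Cldn8 rose in mutant corneas, by 7.95-fold, 2.6-fold and 1.77-fold. Cldn23, Ocln, Tjp1 and Tjp3 fell, and Cldn3 and Cldn7 did not pass the test. Thus 7 of 9 were called, against 31.6% of all genes tested. All 9 had mean intensities above the median of all rows (6.77) in every group, while the share of all genes also counts dimmer ones. Of the 9, 3 were higher and 4 lower, against 15.1% and 16.5% of all genes, and the median log2 difference was −0.04 for the 9 genes and −0.02 over all genes. The mutant and WT arrays did not overlap for 7 of the 9 genes, against 44.7% of all genes. The same 3 and 4 genes were called whichever array was left out.

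Cldn1 encodes claudin-1, which the barrier of mouse epidermis requires. It stood at 12.38, 12.46 and 12.33 in the mutant pools, 11.59, 11.996 and 11.38 in the rescued pools and 9.24, 9.34 and 9.62 in the WT pools. No 2 of the groups overlapped, and every rescued pool lay nearer to the mutant than to the WT pools. The mutant exceeded WT by 2.99 on the log2 scale (SE 0.15, 95% interval 2.65 to 3.33, adjusted p = 1.11e-06). Rescued corneas were 1.66-fold below the mutant (log2 difference −0.73, SE 0.15, adjusted p = 0.0111) and remained 4.78-fold above WT (log2 difference 2.26, SE 0.15, adjusted p = 3.44e-05), so that 75.5% of the log2 difference between mutant and WT was left.

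Cldn4 encodes claudin-4, a strand protein of many barrier epithelia and a receptor for Clostridium perfringens enterotoxin. It stood at 12.87, 12.89 and 12.83 in the mutant pools, 12.31, 12.54 and 12.09 in the rescued pools and 11.38, 11.40 and 11.68 in the WT pools. As for Cldn1, the groups were apart, with the rescued pools in the middle. The mutant exceeded WT by 1.38 (SE 0.12, adjusted p = 1.97e-05). Rescued corneas were 1.47-fold below the mutant (adjusted p = 0.0129) and 1.77-fold above WT (log2 difference 0.82, SE 0.12, adjusted p = 0.00186), which left 59.9% of the difference. For Cldn1 and Cldn4 alike, rescued replicate 2 was the highest and replicate 3 the lowest of the rescued pools. The Srf values of these replicates were 9.45 and 8.45, also the highest and the lowest of that group. None of the other members had this order of the rescued pools, and a relation to Srf was not tested.

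Cldn8 encodes claudin-8, which in mouse kidney works together with claudin-4. It stood at 8.73, 8.81 and 9.02 in the mutant pools, 7.85, 8.15 and 8.10 in the rescued pools and 8.23, 7.82 and 8.06 in the WT pools. The mutant pools were above all others, and rescued and WT pools overlapped. The mutant exceeded WT by 0.82 (SE 0.12, adjusted p = 0.000713), and rescued corneas lay 0.82 below the mutant (log2 difference −0.82, SE 0.12, adjusted p = 0.00221). Rescued and WT differed by −0.004 with a 95% interval from −0.28 to 0.27 (adjusted p = 0.99).

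Cldn23 encodes claudin-23, a claudin of differentiated epithelial cells. It stood at 8.55, 8.53 and 8.36 in the mutant pools, 9.91, 9.97 and 9.93 in the rescued pools and 9.91, 9.79 and 9.86 in the WT pools. The mutant pools lay more than 1 log2 unit below every other pool. The mutant was 2.59-fold below WT (log2 difference −1.37, SE 0.07, adjusted p = 1.11e-06). Rescued corneas were 2.75-fold above the mutant (log2 difference 1.46, adjusted p = 5.16e-06), and rescued minus WT was 0.09 with a 95% interval from −0.07 to 0.24 (adjusted p = 0.482).

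**Figure D1:**
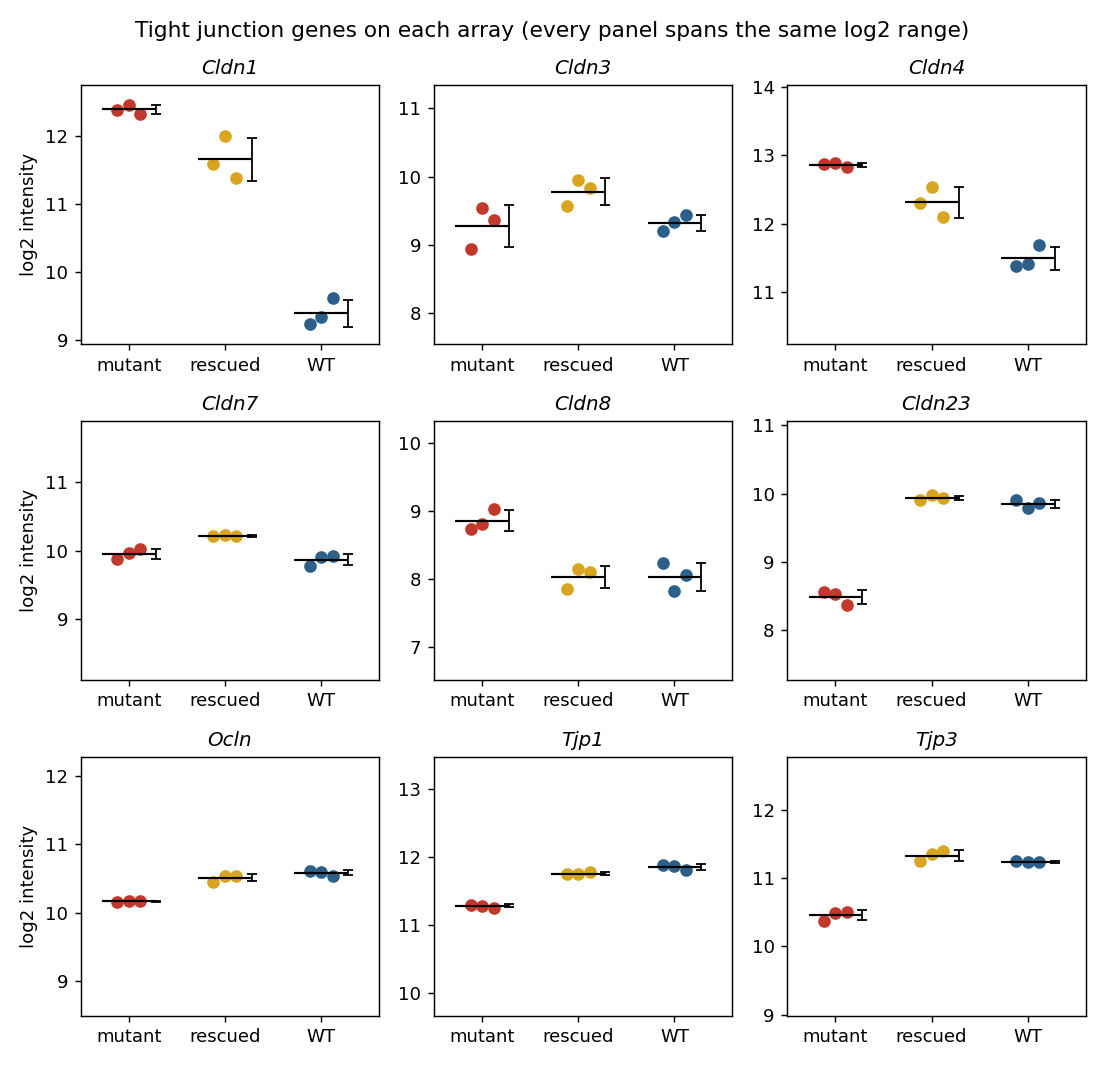
Log2 intensity (vertical axis) of the 9 tight junction genes on each array, for mutant, rescued and WT corneas from left to right; points are pools, bars are means and whiskers are SDs (n = 3), and every panel spans the same log2 range. Cldn1 and Cldn4 step down from mutant through rescued to WT, Cldn8 is high in the mutant pools, and Cldn23, Ocln, Tjp1 and Tjp3 are low in them.

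The occludin gene and both scaffold genes were lower in the mutant than in WT. Tjp3, the gene for zonula occludens protein 3, stood at 10.37, 10.49 and 10.51 in the mutant pools, 11.25, 11.35 and 11.40 in the rescued pools and 11.26, 11.23 and 11.24 in the WT pools. The mutant was 1.72-fold below WT (log2 difference −0.78, SE 0.06, adjusted p = 1.66e-05), and the rescued pools overlapped WT. Tjp1, the gene for the scaffold protein zonula occludens protein 1, stood at 11.30, 11.29 and 11.26 in the mutant, 11.75, 11.75 and 11.78 in the rescued and 11.89, 11.87 and 11.81 in the WT pools. It was 1.49-fold lower in the mutant than in WT (log2 difference −0.58, SE 0.05, adjusted p = 3.73e-05). Ocln stood at 10.16, 10.17 and 10.17 in the mutant, 10.45, 10.54 and 10.54 in the rescued and 10.62, 10.60 and 10.54 in the WT pools. It was 1.34-fold lower in the mutant (log2 difference −0.42, SE 0.06, adjusted p = 0.000339). For Tjp1 and Ocln every mutant pool was below every other pool, and every rescued pool was slightly below every WT pool. In rescued corneas Tjp3, Tjp1 and Ocln were 1.83-fold, 1.39-fold and 1.27-fold above the mutant (adjusted p = 4.88e-05, 0.000541 and 0.00353). Rescued minus WT was 0.09, −0.10 and −0.08 on the log2 scale, and no interval excluded 0 (−0.05 to 0.24, −0.22 to 0.02 and −0.20 to 0.05).

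Cldn7 and Cldn3 were the members that differed least between mutant and WT. Cldn7, whose protein binds EpCAM, stood at 9.87, 9.97 and 10.02 in the mutant pools, 10.21, 10.23 and 10.22 in the rescued pools and 9.77, 9.91 and 9.92 in the WT pools. Mutant and WT pools overlapped, and the rescued pools were above both. The difference of mutant from WT was 0.09 (95% interval −0.06 to 0.23, adjusted p = 0.385), whereas rescued corneas were 1.27-fold above WT (log2 difference 0.35, SE 0.07, adjusted p = 0.00766) and 1.2-fold above the mutant (adjusted p = 0.0278). The call against the mutant was lost without mutant replicate 1 (adjusted p = 0.103) or 2 (0.0568) and without rescued replicate 1 (0.0648), 2 (0.0693) or 3 (0.0786). Cldn3, the neighbour of Cldn4 on chromosome 5 and likewise an enterotoxin receptor, stood at 8.94, 9.54 and 9.37 in the mutant, 9.57, 9.95 and 9.83 in the rescued and 9.20, 9.34 and 9.43 in the WT pools. The rescued pools were again above the others, but neither the difference from the mutant (0.50, adjusted p = 0.0597) nor that from WT (0.46, adjusted p = 0.0802) passed the test. The first passed it without mutant replicate 2 (adjusted p = 0.0303) or rescued replicate 1 (0.0477), and the second without mutant replicate 1 (0.0299). Both passed with genes below the median intensity left out (0.0313 and 0.0448) and with the replicate number as a block (0.0134 and 0.019). With trend and robust moderation the first passed (0.049), and with the 6 arrays of the comparison alone the second (0.0393). Of 19 alternatives, 5 called the first and 4 the second.

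Rescued corneas were set against the mutant to see what changed with ablation of epithelial Srf on the Dstn mutant background. In this comparison 8 of 9 genes were called, against 13.3% of all genes tested. Of the 9 genes, 5 were called higher in rescued corneas (Cldn7, Cldn23, Ocln, Tjp1 and Tjp3) and 3 lower (Cldn1, Cldn4 and Cldn8), where 6.46% and 6.88% of all genes tested were called. Rescued and mutant arrays did not overlap for any of the 9 genes, against 32.2% of all genes. Between rescued and WT corneas 3 of 9 genes were called, against 13.7% of all genes: Cldn1, Cldn4 and Cldn7 were higher and none was lower, where 6.28% and 7.43% of all genes were. Rescued and WT arrays did not overlap for 7 of the 9 genes, against 31.6% of all genes. The 3 comparisons share arrays, and their counts are therefore not independent. In the F test over the 3 groups, 8 of 9 genes passed, against 29.4% of all genes, and Cldn3 did not (adjusted p = 0.0526).

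**Figure D2:**
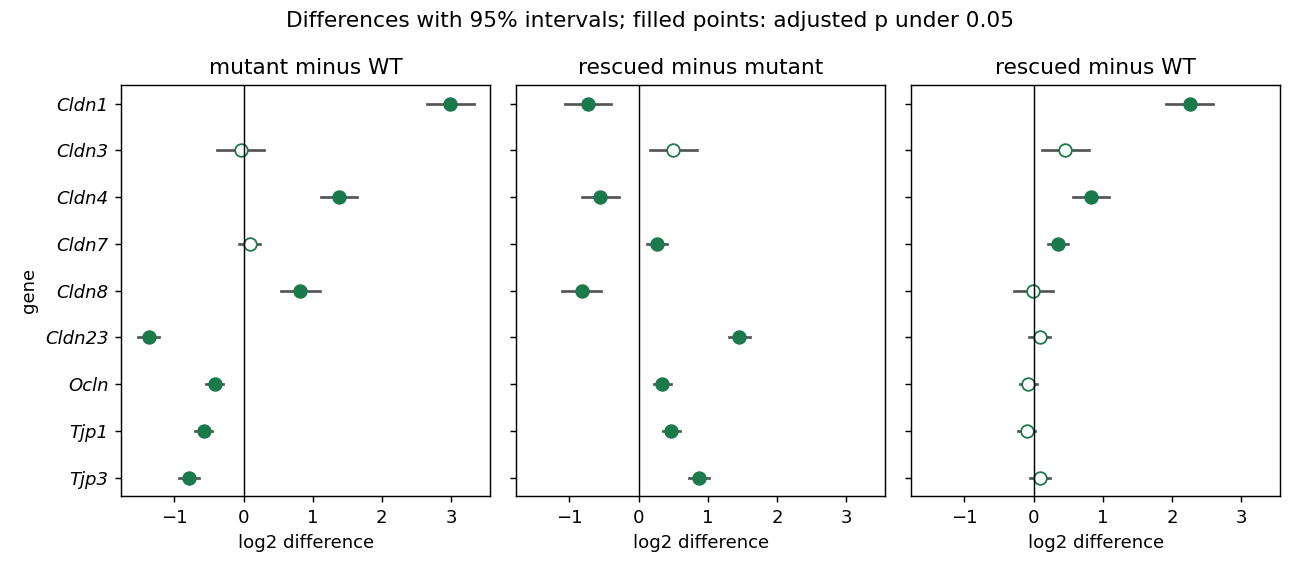
Log2 difference (horizontal axis) of each tight junction gene in the 3 comparisons, with 95% intervals from the limma fit; filled points have an adjusted p under 0.05. In the right panel Cldn1, Cldn4 and Cldn7 lie above 0 with an adjusted p under 0.05, and the intervals of Cldn8, Cldn23, Ocln, Tjp1 and Tjp3 cross 0.

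The balance of the genes within an array, taken as each gene's log2 value minus the mean of the 9 on the same array, shifted accordingly. The mean of the 9 genes was 10.35 to 10.46 on the mutant arrays, 10.54 to 10.72 on the rescued arrays and 10.15 to 10.24 on the WT arrays. Relative to it, Cldn1 was 2.76 higher in mutant than in WT corneas, while Cldn23 and Tjp3 had differences of −1.60 and −1.02. In rescued minus WT, Cldn1 had 1.82 and Cldn4 0.39, and Tjp1, Ocln and Cldn8 had −0.53, −0.51 and −0.44. Because the rise of Cldn1 lifts the mean, a negative value here shows unequal change and does not by itself show a fall of the gene.

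**Figure D3:**
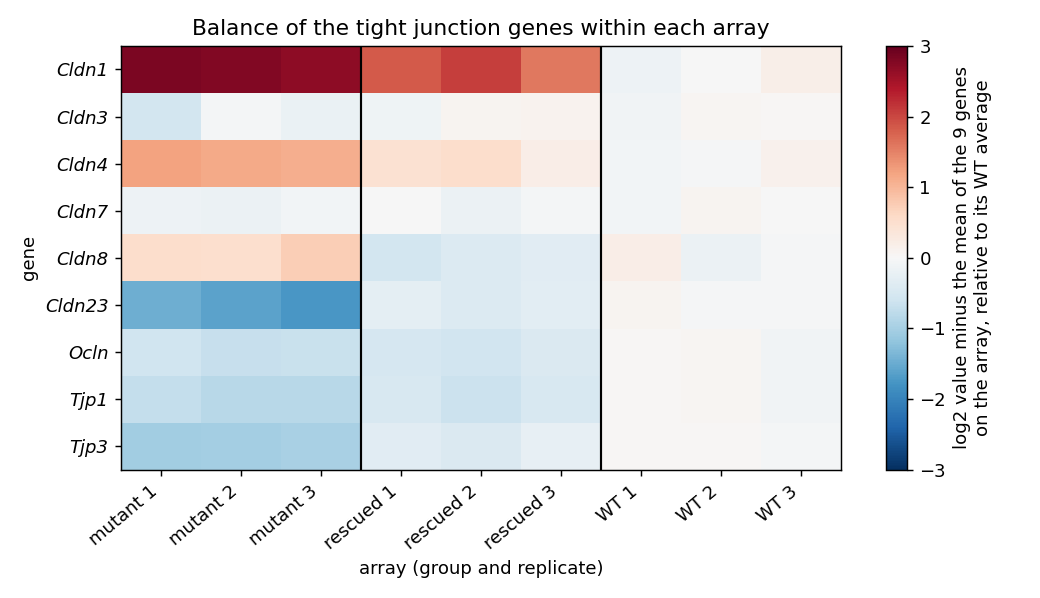
Balance of the tight junction genes within each array: colour gives the log2 value minus the mean of the 9 genes on that array, relative to the WT average, with genes in rows and arrays in columns (mutant, rescued, WT). Cldn1, Cldn4 and Cldn8 gained and the other genes lost relative to WT on the 3 mutant arrays, with Cldn3 and Cldn7 losing least. Cldn1 and Cldn4 stay above WT on the 3 rescued arrays.

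In whole tissue, fewer cells of a type and less RNA per cell cannot be told apart, so markers of the cell types that a cornea sample can hold were set beside these values. The mean of 7 measured markers of the surface epithelium (of 8 listed) was 12.80 to 12.87 in mutant, 12.96 to 12.99 in rescued and 12.85 to 12.88 in WT pools, all far above the median of all rows (6.77). Of these, Dsp, Perp and Trp63 had log2 differences of 0.01, 0.06 and 0.03 between mutant and WT and were not called, Krt12, Aldh3a1 and Pax6 were lower and Krt14, a basal cell keratin, was higher by 1.22. Over all genes, 15.1% were called higher and 16.5% lower in the mutant, and these shares stand beside the marker counts given here. Of 10 markers of conjunctiva and goblet cells, epithelia that border the cornea, 8 were higher and none lower in the mutant. Krt18, Krt8, Krt4 and Krt19 rose most (log2 differences 4.32, 4.25, 2.97 and 2.56). Muc5b and Spdef were not called (adjusted p = 0.174 and 0.383). The mean of the 10 was 9.72 to 10.03 in mutant, 8.87 to 9.43 in rescued and 7.79 to 7.95 in WT pools. The goblet cell mucin gene Muc5ac lay below the median of all rows in every group. Of 10 markers of blood endothelium, which also makes tight junctions, 9 rose in mutant corneas, Cldn5 among them, and 1 fell. The one that fell, Kdr, was named after its values were seen (log2 difference −0.59, adjusted p = 0.0133). Means of these 10 markers were 7.99 to 8.44 in mutant, 7.51 to 7.86 in rescued and 6.59 to 6.63 in WT pools. All 4 measured markers of corneal endothelium (of 5 listed) were lower in the mutant, among them Slc4a11, whose call was lost without mutant replicate 1 (adjusted p = 0.0584) and without WT replicate 1 (0.0634) or 2 (0.0581). Their mean was 9.87 to 10.07 in mutant, 10.15 to 10.25 in rescued and 10.41 to 10.47 in WT pools. Of 8 leukocyte markers 7 rose and 1 fell in mutant corneas. The one that fell, Itgam, the gene for an integrin of myeloid cells, was named after its values were seen and had a log2 difference of −1.13 in mutant minus WT (adjusted p = 0.000502) and of 1.39 in rescued minus mutant (adjusted p = 0.000569). The mean of the 8 was 8.56 to 9.08 in mutant, 8.47 to 8.87 in rescued and 7.62 to 7.77 in WT pools. That of 6 keratocyte markers was 10.85 to 11.21 in mutant, 10.90 to 11.04 in rescued and 10.80 to 11.05 in WT pools. Among these 6, Thy1 was higher in the mutant (log2 difference 1.02, adjusted p = 0.00496). Ptgds and Kera were lower (−0.50 and −0.42, adjusted p = 0.00512 and 0.0259). The call of Kera was lost without mutant replicate 2 (adjusted p = 0.0889) or 3 (0.0507) and without WT replicate 1 (0.0576) or 2 (0.0945). The part of these cell types in the tight junction differences was not tested.

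Of 25 other claudin genes, Cldn5 rose and Cldn17, Cldn10 and Cldn12 fell in mutant corneas, 4 of 25 called where 31.6% of all genes were, and 19 had mean intensities below the median of all rows in every group. Cldn5, the claudin of blood endothelium, stood at 7.51, 7.39 and 7.64 in the mutant, 6.92, 7.33 and 7.38 in the rescued and 6.15, 6.36 and 6.50 in the WT pools. It was at least 2.26-fold higher in the mutant than in WT (adjusted p = 0.000133) and was higher in rescued than in WT pools as well (log2 difference 0.87, adjusted p = 0.00312). Cldn17 stood at 9.34, 8.60 and 9.38 in the mutant, 9.88, 9.98 and 10.33 in the rescued and 10.07, 10.08 and 10.19 in the WT pools. It was 2.01-fold lower in the mutant than in WT (adjusted p = 0.00308) and 1.94-fold higher in rescued than in mutant corneas (adjusted p = 0.011), and mutant replicate 2 was the lowest pool. Cldn10 was 1.47-fold lower in the mutant than in WT (adjusted p = 0.000199) and also lower in rescued than in WT corneas (log2 difference −0.47, adjusted p = 0.00234). Cldn12 was 1.28-fold lower in the mutant (adjusted p = 0.00504) and also lower in rescued than in WT corneas (log2 difference −0.36, adjusted p = 0.0127). The latter call was lost without rescued replicate 2 (adjusted p = 0.0511). The number of claudin genes called higher among the 25 became 2 without WT replicate 3 and with the Y-linked covariate.

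Of 11 other membrane proteins of the junction, Lsr was higher and Jam2 and Cxadr were lower in the mutant, and 8 were not called. That is 3 of 11 called, where 31.6% of all genes were, and the median was −0.05. Lsr, the gene for angulin-1 at junctions where more than a pair of cells meet, was 1.45-fold higher in the mutant (9.91 ± 0.10 against 9.37 ± 0.03 in WT, SD, n = 3 each; adjusted p = 0.000229). Jam2 and Cxadr, the genes for a junctional adhesion molecule and the coxsackievirus and adenovirus receptor, were 1.35-fold and 1.26-fold lower (adjusted p = 0.00146 and 0.00411). Jam2 was also lower in rescued than in WT corneas (log2 difference −0.30, adjusted p = 0.0283). That call was lost without rescued replicate 2 or 3 or WT replicate 1 or 2. Of 18 measured scaffold and polarity genes (of 21 listed), 8 were lower and 2 higher in the mutant, where 16.5% and 15.1% of all genes were, with a median of −0.20. Magi3, the gene for a PDZ scaffold, averaged 9.15 ± 0.13 in mutant, 10.17 ± 0.17 in rescued and 10.46 ± 0.15 in WT corneas. It was 2.48-fold lower in the mutant than in WT (adjusted p = 1.85e-05) and 2.03-fold higher in rescued than in mutant corneas (adjusted p = 0.000373). Pard6b, a subunit gene of the apical polarity complex, was 1.97-fold lower in the mutant (adjusted p = 1.76e-05). Amotl2, the gene for an angiomotin-like protein, was 1.59-fold lower (adjusted p = 0.000212), and Cgn, the gene for cingulin, which binds the zonula occludens proteins, 1.55-fold lower (adjusted p = 0.000267). In rescued corneas these 3 were 1.81-fold, 1.38-fold and 1.57-fold above the mutant (adjusted p = 0.000201, 0.00597 and 0.000841). Of the 18 genes, 6 were called higher and 1 lower in rescued than in mutant corneas, where 6.46% and 6.88% of all genes were, and 11 were not called. The lower one, Prkci, the gene for an atypical protein kinase C of the polarity complex, was named after its values were seen (log2 difference −0.20, adjusted p = 0.0358), and its call was lost whenever 1 of the mutant or rescued replicates, or WT replicate 2, was left out.

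Adherens junction genes, which hold the cells together just below the tight junction, had 4 of 12 members higher and 3 lower in the mutant (median 0.12), where 15.1% and 16.5% of all genes were. Cdh3, the gene for P-cadherin, stood at 10.43, 10.35 and 10.52 in the mutant, 9.37, 9.60 and 8.81 in the rescued and 7.81, 7.94 and 7.73 in the WT pools. It was 6.08-fold higher in the mutant than in WT (adjusted p = 3.79e-06), and the rescued pools again lay between the groups, 2.7-fold above WT (adjusted p = 0.000687). Cdh1, the gene for E-cadherin, was 1.36-fold higher in the mutant (12.40 ± 0.01 against 11.96 ± 0.06 in WT, SD, n = 3 each; adjusted p = 0.000316), and Nectin1 1.33-fold higher (adjusted p = 0.00303). Nectin1 was also higher in rescued than in WT corneas (log2 difference 0.34, adjusted p = 0.0214). That call was lost without rescued replicate 2 or WT replicate 2 or 3. Plekha7, the gene for a protein of the apical adherens belt, was 1.45-fold lower (adjusted p = 0.000197) and 1.54-fold higher in rescued than in mutant corneas (adjusted p = 0.000338).

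Among 15 measured transcription regulators of epithelial junctions (of 16 listed), 5 fell and 1 rose in mutant corneas, where 16.5% and 15.1% of all genes did, with a median of −0.20. Snai2, the gene for the repressor Slug, was 1.71-fold higher (11.33 ± 0.04 in mutant and 10.55 ± 0.02 in WT corneas, SD, n = 3 each; adjusted p = 1.11e-05), and in rescued corneas it was at 10.96 ± 0.07, still 1.33-fold above WT (adjusted p = 0.00224). Grhl1, a grainyhead-like factor gene, was 1.64-fold lower in the mutant (adjusted p = 0.000119), Klf4 1.55-fold (adjusted p = 5.75e-05) and Twist2 1.39-fold (adjusted p = 0.0111). Klf4 was 1.58-fold higher in rescued than in mutant corneas (adjusted p = 0.000226). Grhl1 was still lower in rescued than in WT corneas (log2 difference −0.32, adjusted p = 0.0308). That call was lost without rescued replicate 1 or 2 or any 1 of the WT replicates. Named here after their values were seen, Grhl3 fell by 0.36 in the mutant (adjusted p = 0.000956), while Grhl2, which activates Cldn4 in mouse epithelia, had a difference of −0.21 that was not called (adjusted p = 0.0512). All 5 measured genes of claudin partners and barrier proteases (of 6 listed) were called in the mutant, 2 higher and 3 lower, where 31.6% of all genes were called. St14, the gene for the protease matriptase, was 1.42-fold higher in the mutant than in WT (adjusted p = 0.000132), with means of 11.44 ± 0.04 in mutant, 11.46 ± 0.04 in rescued and 10.93 ± 0.05 in WT corneas. Prss8, the gene for prostasin, which acts with matriptase in epidermal barrier formation, was 1.88-fold lower (adjusted p = 4.58e-06), at 10.66 ± 0.04 in mutant, 11.59 ± 0.07 in rescued and 11.56 ± 0.02 in WT corneas. Spint1, which encodes an inhibitor of matriptase, was 1.35-fold lower (adjusted p = 0.000788), and Epcam 1.32-fold higher (adjusted p = 0.00586).

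Of 15 measured genes of the actomyosin belt that pulls on the junctions (of 16 listed), 5 were higher and 6 were lower in the mutant, where 15.1% and 16.5% of all genes were, with a median of −0.05. Myl9, a myosin light chain gene, was 4.26-fold higher (adjusted p = 2.07e-06), Vcl, the gene for vinculin, 3.68-fold (adjusted p = 2.7e-06) and Myh9, a nonmuscle myosin heavy chain gene, 2.14-fold (adjusted p = 2.16e-05). Mylk, which encodes myosin light chain kinase, was 1.93-fold lower (adjusted p = 0.000254). Myl9 stayed 1.8-fold above WT in rescued corneas (adjusted p = 0.00184). Vcl averaged 13.18 ± 0.04 in mutant, 12.20 ± 0.26 in rescued and 11.30 ± 0.04 in WT corneas, the same order of groups as Cldn1 and Cldn4.

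**Figure D4:**
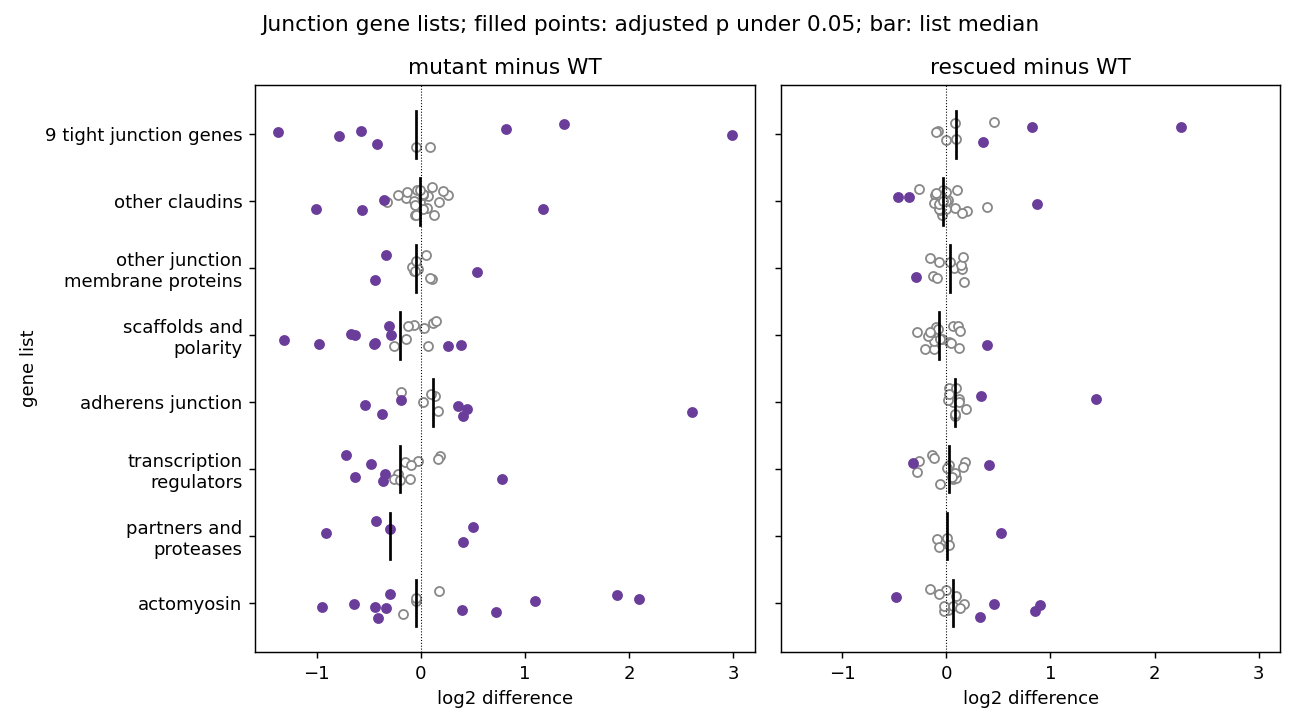
Log2 difference (horizontal axis) of every measured gene of the junction lists (rows), for mutant minus WT on the left and rescued minus WT on the right; points are genes, filled where the adjusted p is under 0.05, and bars are list medians. In the scaffold and polarity row 8 genes are lower and 2 higher in the mutant, and 1 is called between rescued and WT.

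The genes whose pattern over the 9 arrays was most like that of Cldn23, the member with the largest F statistic, were Mal (r = 0.994), Tprg (0.993), Kifc3 (0.993), Muc4 (0.9925) and Adap1 (0.992). Muc4, the gene for a membrane mucin of the ocular surface, averaged 11.88 in mutant, 13.09 in rescued and 12.94 in WT corneas. Of the other tight junction genes, Tjp3 (r = 0.985), Tjp1 (0.971) and Ocln (0.961) were close to Cldn23 in pattern. For Cldn1 the most alike genes were Krt14 (r = 0.997), Serinc2 (0.996), Pglyrp4 (0.996), Nt5e (0.995) and Bcl3 (0.995), and among the members Cldn4 (0.981). Nt5e, the gene for the ectonucleotidase CD73, averaged 13.10 in mutant, 12.17 in rescued and 8.40 in WT corneas. These Pearson correlations rest on 9 arrays in 3 groups and so mostly repeat the order of the group means.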

How the data were processed

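Per the labels' protocols, RNA of pooled whole corneas was isolated with Trizol, and the Ambion WT Expression and Affymetrix WT Terminal Labeling kits gave biotin-labelled target. The values are log2 intensities that the authors deposited after normalising them between arrays; their method, software and genome build were not given in the labels. That the logarithm has base 2 follows only from the span of the values (2.14 to 14.3). Of 41345 rows, 23521 have exactly 1 symbol, and the brightest row stood for each of 22180 genes. Symbols were updated through Entrez identifiers (21994 found). No filter was applied.

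The 3 comparisons and an F test were fitted with limma 3.58.1 in R 4.3.3 (lmFit, contrasts, eBayes) over all 9 arrays, two-sided; SEs and 95% intervals are the moderated ones and are not adjusted for multiple testing. The fit was tested on simulated data. A fold is a ratio of measured intensities and is written as at least N-fold where the lower mean is under 6.77, the median of all rows. The number of arrays limits the precision. Members and gene lists were chosen with earlier results of these data known. Up to 4 called genes of each junction gene list, largest in mutant minus WT, were named, and the 5 genes most correlated with each of the 2 members of largest F. Marker lists were given by counts and mean levels, with only some markers named. Same-numbered arrays did not deviate together (r = −0.016 to 0.063 over 9 pairs). Correlations over all genes do not settle whether the pools were paired, and the main fit holds no replicate term. The alternatives are listed in the closing section; those with a Y-linked covariate, and all those for genes other than the 9 and for gene lists, were added after seeing the data. Promoter windows come from RefSeq, GRCm38.p6. Plots were made in Python 3.11.15 with matplotlib 3.10.9.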

Additional observations from a re-analysis of the deposited data

How the results depend on the processing

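The alternatives were quantile normalisation, centring on array medians, leaving out genes below the median intensity, averaging all rows of a gene, trend and robust moderation, array weights, the 6 arrays of a comparison alone, the replicate number as a block, a Y-linked covariate, an adjusted p under 0.01, and leaving out each array. Of 513 values for the 9 genes over these settings, 496 kept their side of the threshold, 8 lost a call and 9 gained one. No called difference reversed. Uncalled differences could change sign: that of Cldn3 in mutant minus WT ran from −0.171 to 0.127, and that of Cldn8 in rescued minus WT from −0.113 to 0.093. The calls gained were those of Cldn3, and the calls lost those of Cldn7 between rescued and mutant, together with Cldn1 (adjusted p = 0.0111) and Cldn4 (0.0129) there at the threshold of 0.01. At that threshold 5 of the 9 genes were called between rescued and mutant, 1 of them lower, and the genes called over the whole array numbered 1420 between rescued and mutant, 1374 between rescued and WT and 4165 in the F test, against 2959, 3042 and 6524. Leaving out 1 array gave 1808 to 2795 genes between rescued and mutant and 1812 to 2975 between rescued and WT, and the lowest counts came without rescued replicate 3 (1808) and mutant replicates 1 (1871) and 3 (1931) in the first and without rescued replicate 2 (1812) in the second. These fits hold fewer arrays. With the replicate block, 7, 9 and 4 of the 9 genes were called in mutant minus WT, rescued minus mutant and rescued minus WT, against 7, 8 and 3 without it; Cldn3 was the gene gained (adjusted p = 0.0134 and 0.019). Followed too were 61 other genes. These were Dstn, Srf, up to 4 called genes of each junction or marker list, and the genes most correlated with Cldn23 and Cldn1. Genes named outside this rule were left out. Of the 3477 values of the 61 genes, 3353 kept their side of the threshold, 103 lost a call and 21 gained one. Here too no called difference reversed. Signal near or below the median of all rows may hold background, which limits what can be said of Muc5ac, Cldn16, Cldn5 in WT and Dstn in mutant and rescued corneas. Muc5b and Spdef in every group and Twist2 in mutant corneas also lay near it. The same holds in WT for the markers Cdh5, Emcn, Tek, Esam, Plvap, Ptprc, Adgre1, Cd14, Krt7, Thy1 and Agr2, and for Tek in rescued corneas.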

Other observations

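Neighbouring genes on a chromosome did not always share a direction. Cldn17, which lies next to Cldn8 on chromosome 16, had a log2 difference of −1.01 between mutant and WT where Cldn8 had 0.82. Cldn4 had 1.38 and its neighbour Cldn3 −0.04 on chromosome 5, and Mettl27 on the other side of Cldn4 had −0.52 (adjusted p = 0.000263). Marveld2, the gene for tricellulin and the neighbour of Ocln on chromosome 13, had −0.02 (adjusted p = 0.845). Cldn16, next to Cldn1, lay at 5.90, 5.82 and 5.88 in mutant, rescued and WT corneas, below the median of all rows.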
